A study of Rattus norvegicus with 16 samples.

Results

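Fatty acid uptake and binding proteins move fatty acids from the blood into cells and carry them through the cytosol, and their genes form families whose members are used by different organs. The 9 genes listed here were chosen by symbol for that role: the fatty acid translocase Cd36, the fatty acid transport proteins Slc27a1, Slc27a2 and Slc27a4, the fatty acid binding proteins Fabp1, Fabp2, Fabp4 and Fabp5, and the lipoprotein receptor Vldlr. The rule itself names symbols and uses no expression value, though earlier results of these data were known when the list was drawn up. Of the 9 symbols, 8 were found among the 22517 gene symbols of the 16 libraries, and Fabp5 was not analysed here.

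Expression was measured by RNA sequencing in 4 groups of 4 libraries: liver of rats given R-α-lipoic acid (LA), liver of pair-fed rats (PF), epididymal fat of LA rats and epididymal fat of PF rats. All 8 rats were obese males of the Zucker ZDF/GmiCrl-fa/fa strain, so every group carried the fa/fa genotype, which leaves the animals without a working leptin receptor, and no lean group was part of the comparison. They were bought at 7 weeks of age and fed from 9 to 11 weeks of age, for 2 weeks, on Purina 5008 chow with LA or on the same chow without it in matched rations. Each rat gave liver and fat, and since no label links a liver library to the fat library of its rat, libraries were treated as independent and p-values measure the spread between them. R-α-lipoic acid is the natural form of a disulphide compound that mitochondrial enzyme complexes use as a cofactor.

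In the textbook account, Vldlr helps lipoprotein lipase to release fatty acids from triglyceride-rich lipoproteins in the capillaries, Cd36 and the transport proteins promote their entry at the membrane, and the binding proteins keep them soluble inside the cell. The transport proteins also join the incoming fatty acid to coenzyme A, which traps it. Liver is known for Fabp1 and Slc27a2, and fat for Cd36, Slc27a1 and Fabp4, a classic marker of the mature adipocyte that is also made by macrophages and capillary endothelium.

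Levels are given in FPKM, that is, fragments per kilobase of transcript and per unit of library depth, so levels of different genes can be set side by side. Between 9522 and 9738 genes reached 1 FPKM in the liver libraries and between 11276 and 11480 in the fat libraries, and the log2 values of replicates correlated at 0.969 to 0.994 across genes. The files give no read counts; from the steps between low values, the FPKM worth of 1 fragment relative to the shallowest library was 0.722 to 0.894 in LA liver, 0.853 to 1 in PF liver, 0.739 to 0.866 in LA fat and 0.774 to 0.961 in PF fat, where a smaller value means a deeper library. Hepatocyte markers summed to 33830 to 43308 FPKM in LA liver and 44207 to 54936 FPKM in PF liver, with Alb and Tf listed at 0, and adipocyte markers to 11816 to 12776 FPKM in LA fat and 11798 to 13489 FPKM in PF fat. In tissue RNA, fewer cells of a type and less RNA per cell cannot be told apart.

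Promoter sequences are shown for 3 members because they span the range of behaviour described next: Fabp1 and Slc27a2, the liver forms, and Vldlr, which was near 0 in liver and for which the feed difference was compared between tissues. Each is the 250 bases before the annotated gene start on the plus strand, from RefSeq on build GRCr8, at chr4:104749090-104749339 for Fabp1, chr3:134257851-134258100 for Slc27a2 and chr1:234240436-234240685 for Vldlr. Capitals mark the core motif of nuclear receptor sites, AGGTCA on either strand, which reads TGACCT where it lies on the other strand.
Fabp1: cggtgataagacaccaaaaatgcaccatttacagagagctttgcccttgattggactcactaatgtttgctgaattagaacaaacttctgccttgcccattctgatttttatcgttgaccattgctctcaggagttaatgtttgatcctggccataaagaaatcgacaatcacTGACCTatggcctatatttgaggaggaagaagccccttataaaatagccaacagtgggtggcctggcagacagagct
Slc27a2: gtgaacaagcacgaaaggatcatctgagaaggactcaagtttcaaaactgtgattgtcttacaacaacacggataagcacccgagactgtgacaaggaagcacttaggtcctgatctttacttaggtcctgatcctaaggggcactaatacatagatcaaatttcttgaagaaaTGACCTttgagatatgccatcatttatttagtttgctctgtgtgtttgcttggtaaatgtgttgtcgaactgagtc
Vldlr: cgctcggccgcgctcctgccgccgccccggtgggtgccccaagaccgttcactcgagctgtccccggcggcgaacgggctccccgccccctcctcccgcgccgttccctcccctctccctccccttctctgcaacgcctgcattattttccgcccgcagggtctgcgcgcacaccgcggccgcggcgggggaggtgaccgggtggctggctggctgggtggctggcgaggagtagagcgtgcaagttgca
The motif began at position -77 in Fabp1, at -76 in Slc27a2 and at -242 in Slc27a1, and these were 3 of the 7 members with a promoter in the RefSeq table. Of 33469 promoters of that length in the table, 14.1% held it. The direct repeat of the motif with 1 base between the copies is a form bound by PPAR and RXR pairs. With exact copies, no member held that repeat within this window, and 0.0508% of all promoters did. Imperfect repeats were not searched. In Fabp1 the motif is followed, after 1 base, by tggcct, which differs from TGACCT in 1 letter. A match of letters describes the sequence and was not tested as a binding site.

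Liver and fat used different forms of each family. Tested with limma on log2(FPKM + 1) and called at an adjusted p under 0.05 with a log2 fold change over 1 in size, all 8 members differed between liver and fat in LA rats and in PF rats, against 46.4% and 47.4% of all genes tested. Fabp1, Fabp2 and Slc27a2 were higher in liver, where 10.5% of genes in LA rats and 11.1% in PF rats were called higher. Cd36, Slc27a1, Slc27a4, Fabp4 and Vldlr were lower in liver, the direction called for 36% of genes in LA rats and 36.3% in PF rats. Fabp2 reached 1 FPKM in liver alone and Vldlr in fat alone, so each entered these fits only through the tissue where it was high, and the count of 8 is given as a description. Fabp4 under both feeds and Slc27a2 in LA rats fell under 1 FPKM in some libraries of the lower tissue. They too passed the filter through the tissue where they were high, and these values are given as descriptions. The median log2 fold change of all genes tested lay at -0.65 in LA rats and -0.66 in PF rats. Differences of Cd36, Slc27a1 and Slc27a4 are therefore also given after each library was centred on the median of its own log2 values. The other tissue differences are given without centring. Among the members, Slc27a1 in PF rats was the call lost with centring. With each library centred on its median, calls split into 1985 higher and 2292 lower in LA rats, in place of 1211 and 4161, and into 2064 higher and 2253 lower in PF rats, in place of 1273 and 4174. The sources used here do not say whether libraries of both tissues were scaled together.

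**Figure D1:**
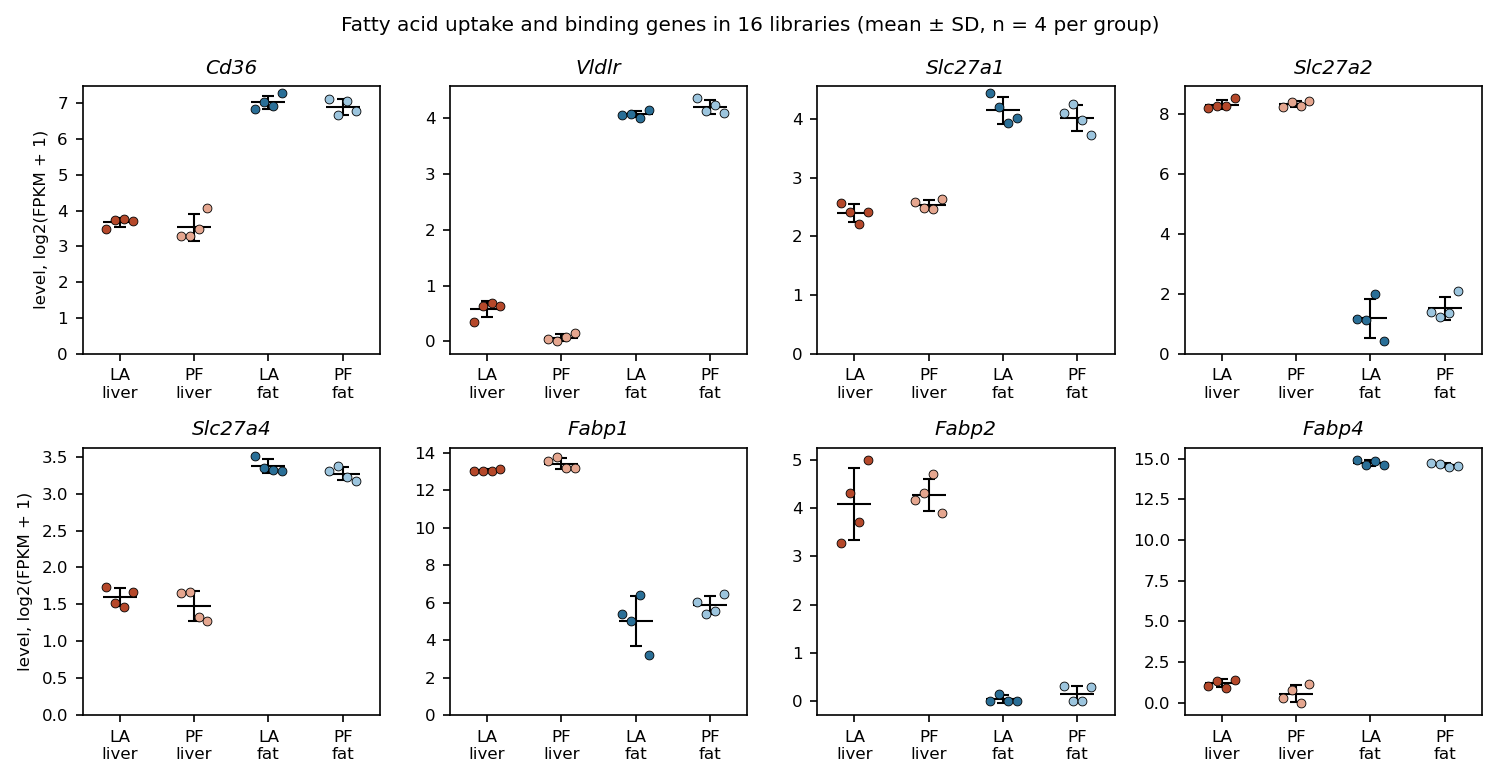
Level of each member as log2(FPKM + 1) in every library of LA liver, PF liver, LA fat and PF fat; points are libraries and bars give the mean ± SD (n = 4). Fabp1, Fabp2 and Slc27a2 sit higher in liver, the other 5 sit higher in fat, and each panel has its own axis.

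Among the membrane proteins, Cd36, which binds long-chain fatty acids at the cell surface, was a fat gene in these rats. It was measured at 10.1, 12.3, 12.6 and 12.1 FPKM in LA liver, against 115, 131, 121 and 155 FPKM in LA fat. In PF rats the levels were 8.78, 8.70, 10.3 and 15.9 FPKM in liver, against 138, 100.5, 133 and 109 FPKM in fat. No liver library reached the lowest fat library, and the log2 fold change of liver over fat was -3.36 (SE 0.11, limma adjusted p = 6.17e-10) in LA rats and -3.37 (SE 0.18, limma adjusted p = 9.68e-09) in PF rats. With each library centred on its median, the values were -2.69 and -2.70.

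Vldlr, which takes up very low density lipoprotein, was the member closest to absence in liver. Its levels were 0.279, 0.551, 0.609 and 0.554 FPKM in LA liver and 0.0313, 0, 0.0542 and 0.107 FPKM in PF liver. In fat they were 15.7, 15.8, 15.0 and 16.6 FPKM in LA rats and 19.5, 16.5, 17.9 and 15.99 FPKM in PF rats. The order of the group means was therefore PF fat, LA fat, LA liver and PF liver, in which the fat groups overlapped and the liver groups did not. The log2 fold change of liver over fat was -3.49 (SE 0.10, limma adjusted p = 1.93e-10) in LA rats and -4.14 (SE 0.10, limma adjusted p = 1.45e-11) in PF rats. The PF value was -6.94 with a pseudocount of 0.1, so its size depended on the scale. Vldlr entered these fits only through fat, so its values of liver over fat are given as descriptions.

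The transport proteins were split between the tissues. Slc27a2 (FATP2), which activates very long-chain fatty acids in liver and kidney, stood at 296, 309, 307 and 370.3 FPKM in LA liver and at 300.3, 337, 307 and 350.1 FPKM in PF liver. In fat it stood at 1.25, 1.19, 2.96 and 0.329 FPKM in LA rats and at 1.64, 1.32, 1.58 and 3.22 FPKM in PF rats. Its log2 fold change of liver over fat was 7.15 (SE 0.26, limma adjusted p = 1.51e-09) in LA rats and 6.82 (SE 0.17, limma adjusted p = 1.87e-11) in PF rats, with no overlap between tissues.

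Slc27a1 (FATP1), the insulin-responsive transporter of fat and muscle, was measured at 4.91, 4.34, 3.61 and 4.34 FPKM in LA liver and at 5.003, 4.63, 4.54 and 5.1997 FPKM in PF liver. In fat it was measured at 21.0, 17.6, 14.3 and 15.3 FPKM in LA rats and at 16.3, 18.1, 14.8 and 12.3 FPKM in PF rats. The liver level was lower in every library, with log2 fold changes of -1.76 in LA rats and -1.48 in PF rats, and of -1.09 and -0.80 with each library centred on its median. The centred value in PF rats lay under the fold limit, so that call depended on the scaling. Slc27a4 (FATP4), which works in the endoplasmic reticulum, was likewise lower in liver, at 1.76 to 2.33 FPKM in LA liver and 1.42 to 2.17 FPKM in PF liver, against 8.88 to 10.4 FPKM in LA fat and 7.99 to 9.35 FPKM in PF fat. Its log2 fold changes were -1.77 and -1.79, or -1.10 and -1.12 with each library centred on its median.

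Summed over the 6 genes of the transport protein family, liver reached 492 ± 58.8 FPKM in LA rats and 581 ± 47.8 FPKM in PF rats, and fat reached 52.4 ± 8.02 FPKM in LA rats and 50.2 ± 7.02 FPKM in PF rats (SD, n = 4). The largest share of the liver sum was that of Slc27a2, 65.2 ± 3.04% in LA liver and 55.7 ± 1.48% in PF liver (SD, n = 4). Nearly all of the remainder belonged to Slc27a5, with 33.4 ± 3.20% in LA liver and 43.1 ± 1.46% in PF liver (SD, n = 4). In fat the sum was spread over Slc27a3 with 41.8% in LA rats and 42.4% in PF rats, Slc27a1 with 32.7% and 30.6%, and Slc27a4 with 18.1% and 17.4%. These shares are descriptions, and the difference in the liver share between feeds was not tested on its own.

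**Figure D2:**
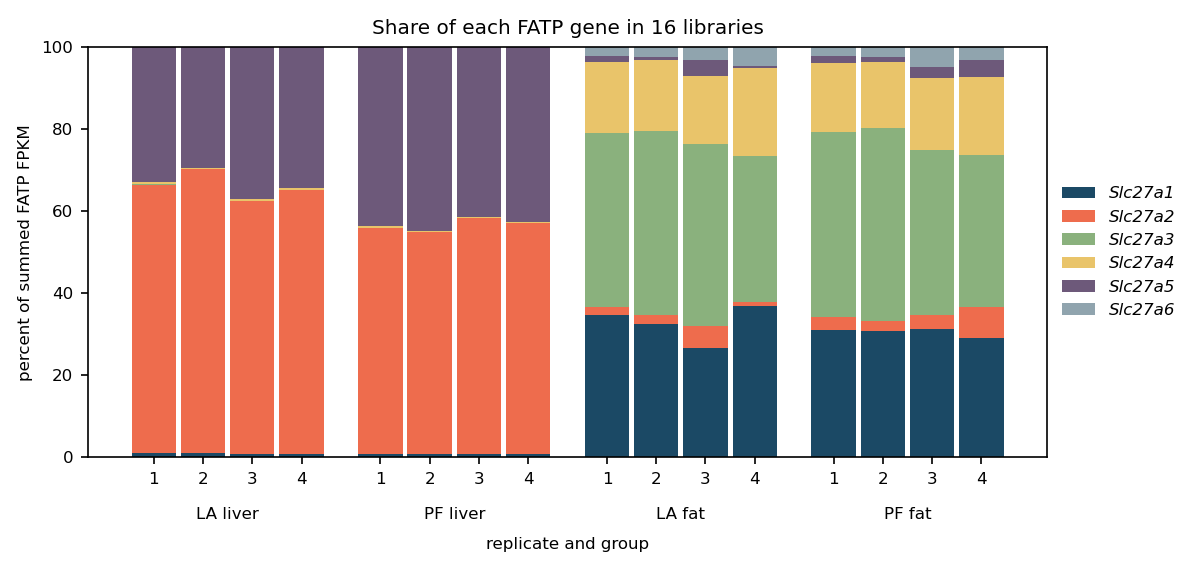
Share of each transport protein gene, in percent of the family's summed FPKM, for each of the 16 libraries grouped as LA liver, PF liver, LA fat and PF fat. Slc27a2 and Slc27a5 fill the liver bars, where the Slc27a2 share is 61.8 to 69.2% in LA liver and 54.2 to 57.5% in PF liver, and Slc27a3, Slc27a1 and Slc27a4 fill most of the fat bars.

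Among the members, the cytosolic binding proteins Fabp4 and Fabp1 showed the widest separation in log2(FPKM + 1). Fabp4, the adipocyte form, was measured at 1.09, 1.57, 0.882 and 1.70 FPKM in LA liver and at 0.244, 0.733, 0 and 1.25 FPKM in PF liver. In fat it had 31560.5, 24683, 29847 and 24654 FPKM in LA rats and 26960.2, 26723, 23357.5 and 24016 FPKM in PF rats, and it ranked 1 of 22517 symbols in all 8 fat libraries. The log2 fold change of liver over fat was -13.56 (SE 0.14, limma adjusted p = 4.38e-13) in LA rats and -14.05 (SE 0.21, limma adjusted p = 1.51e-12) in PF rats.

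Fabp1, the liver form, went the other way, with a smaller gap between tissues than Fabp4. It had 8296, 8483, 8519 and 9058 FPKM in LA liver, against 41.3, 31.6, 83.5 and 8.30 FPKM in LA fat. In PF rats it had 12044, 13900.0, 9360.3 and 9312 FPKM in liver, against 64.6, 41.2, 45.995 and 88.4 FPKM in fat. The gap between tissues was large against the spread between libraries, with a log2 fold change of 8.06 (SE 0.52, limma adjusted p = 1.26e-07) in LA rats and 7.56 (SE 0.24, limma adjusted p = 1.25e-10) in PF rats. Of the summed FPKM of the binding proteins measured, Fabp1 made 99.6% of the liver sum under either feed, and Fabp4 made 99.8% of the fat sum in LA rats and 99.7% in PF rats, where Fabp5 did not enter the sum.

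Fabp2, the intestinal form, was low in liver and near absence in fat. Liver held 8.74, 19.0, 12.2 and 31.1 FPKM in LA rats and 16.9, 18.8, 25.0 and 14.0 FPKM in PF rats, and its listed values in fat were 0, 0.112, 0 and 0 FPKM in LA rats and 0.235, 0, 0 and 0.220 FPKM in PF rats. The 6 enterocyte markers found summed to 0.357 to 0.707 FPKM in LA liver and to 0.192 to 1.05 FPKM in PF liver, below Fabp2 itself in each library. Most of that sum was Rbp2, with means of 0.458 FPKM in LA liver and 0.598 FPKM in PF liver. Of the 6 markers, 3 were listed at 0 in every LA liver library and 4 in every PF liver library. A listed 0 can be a failed estimate. The tissue difference of Fabp2 was called in LA rats (log2 fold change 4.04, limma adjusted p = 3.80e-07) and in PF rats (4.12, limma adjusted p = 8.53e-10), and the values were 7.05 and 6.66 with a pseudocount of 0.1. Fabp2 entered these fits only through liver, so both calls are given as descriptions.

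The liver forms found in fat moved with hepatocyte transcripts from library to library. Relative to its mean level over the 8 liver libraries, Fabp1 in fat stood at 0.418, 0.320, 0.846 and 0.0841% in LA rats and at 0.654, 0.417, 0.466 and 0.896% in PF rats. Slc27a2 stood at 0.387, 0.369, 0.917 and 0.102% in LA fat and at 0.509, 0.410, 0.491 and 1.00% in PF fat. The median of the 8 hepatocyte markers detected in liver stood at 0.388, 0.299, 0.8292 and 0.1002% in LA fat and at 0.565, 0.410, 0.465 and 0.966% in PF fat. Fabp1 thus lay at 0.839 to 1.16 times and Slc27a2 at 0.902 to 1.23 times the marker median of the same library, and LA fat replicate 4 was lowest for each. The part of hepatocyte transcripts in the fat levels of these members was not tested.

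**Figure D3:**
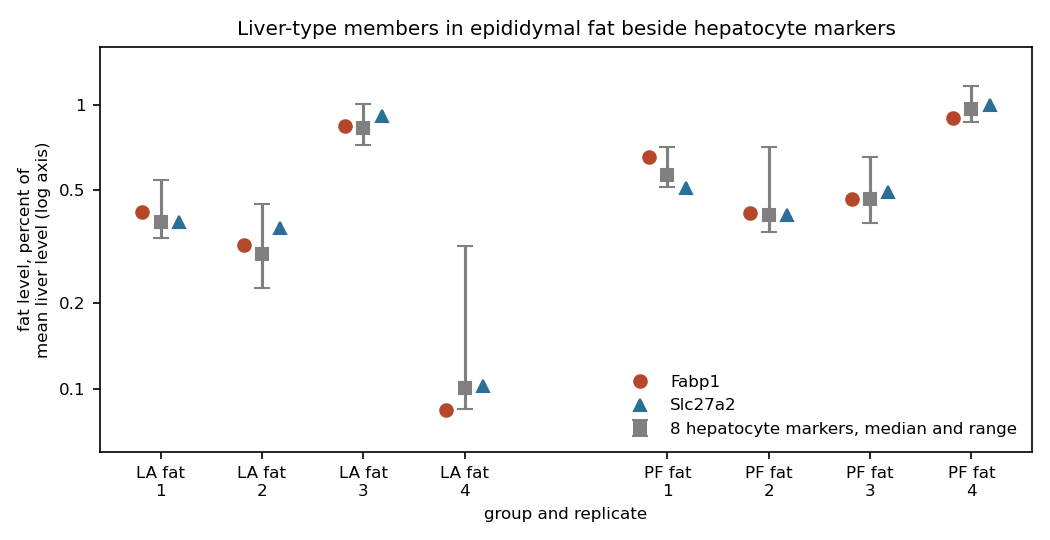
Level in each epididymal fat library as a percent of the mean level over all 8 liver libraries, on a log axis, for Fabp1, Slc27a2 and the median of 8 hepatocyte markers with the range of those markers. In each library both genes lie close to the marker median, from 0.1002% in LA fat replicate 4 to 0.966% in PF fat replicate 4.

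The partners of these proteins were divided by tissue too. Their counts stand beside 46.4% of all genes tested that were called in LA rats and 47.4% in PF rats. Of all genes tested, 10.5% in LA rats and 11.1% in PF rats were called higher in liver, and 36% and 36.3% lower. Of the other FATP and FABP genes, 2 of 5 tested were higher in liver and 3 lower under each feed; Slc27a5 (6.50 in LA rats and 6.90 in PF rats, as log2 fold changes of liver over fat) and Fabp7 (3.83 and 4.28) were higher, and Slc27a3 (-4.32 and -4.33), the heart and muscle form Fabp3 (-3.66 and -3.49) and Slc27a6 (-1.34 and -1.33) were lower. Of the retinoid-binding relatives, Rbp7 (-5.83 and -6.20) and Crabp2 (-2.25 and -2.25) were lower in liver. Among 13 uptake partners tested, 5 were higher and 7 lower in liver under each feed. Lipoprotein lipase, Lpl, had the largest negative value (-10.60 and -11.25), followed by the caveolar protein Cav1 (-8.97 and -9.03) and by Gpihbp1, which anchors the lipase to capillaries (-5.32 and -5.50). The mitochondrial aminotransferase Got2 (2.48 and 2.54) and the acyl-CoA synthetases Acsl4 (2.44 and 2.36) and Acsl5 (2.23 and 3.24) were higher in liver. Lpl, Gpihbp1, Slc27a3, Slc27a6 and Crabp2 reached 1 FPKM in fat alone, and Fabp7 in liver alone. Fabp3, Cav1 and Slc27a5 fell under 1 FPKM in some libraries of the tissue where they were lower, under both feeds. Each of these genes entered the fits only through the tissue where it was high, so the counts are given as descriptions. The values and counts of these lists are without centring, so calls near the fold limit, such as that of Slc27a6, can depend on the scaling.

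Among 8 regulators tested, 4 were higher and 3 lower in liver under each feed, beside the shares of all genes tested given above. The nuclear receptors Hnf4a (6.01 in LA rats and 5.83 in PF rats), Nr1i2 (5.55 and 5.37) and Ppara (2.87 and 2.74) were higher. Nr1i2 reached 1 FPKM in liver alone and entered these fits only through liver. Pparg, the adipocyte receptor (-5.25 and -5.72), Ppard (-1.58 and -1.38) and Atf4 (-1.27 and -1.21) were lower. Hnf4a, Ppara and Ppard under both feeds, and Pparg in PF rats, fell under 1 FPKM in some libraries of the lower tissue. They passed the filter through the tissue where they were higher, and their values are given as descriptions. The regulator values and counts are without centring, so calls near the fold limit, such as those of Ppard and Atf4, can depend on the scaling. These lists were drawn up for their roles, and the median of the genes tested was -1.34 and -1.33 for the other family members, -1.07 and -1.003 for the partners and 1.11 and 1.31 for the regulators, beside -0.65 and -0.66 over all genes tested.

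The feeding question was whether R-α-lipoic acid altered these genes within a tissue. In liver, 0 of the 7 members above the filter passed limma's test at an adjusted p under 0.05, against 4.48% of 9710 genes tested (2.27% higher and 2.21% lower). Fabp1 and Fabp4, 2 of the 7, had an unadjusted p under 0.05, as had 20.1% of all genes tested. Fabp4 passed the filter mainly through LA liver, where it was higher, so its values are given as descriptions. The median log2 fold change of the 7 was -0.02, beside -0.0020 over all genes tested. A single member of the 7, Fabp1, had feed groups that did not overlap, against 12.3% of genes tested.

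Fabp1 was lower in each LA liver library than in any PF liver library, at 8589 ± 328 FPKM in LA liver and 11154 ± 2232 FPKM in PF liver (SD, n = 4). The log2 fold change was -0.36 (SE 0.15, 95% interval -0.69 to -0.02), and limma's adjusted p was 0.217. The exact two-sided permutation test over libraries gave p = 0.029 before any adjustment, the smallest value that 4 against 4 libraries allow. The summed hepatocyte markers also did not overlap between feeds, at 33830 to 43308 FPKM in LA liver and 44207 to 54936 FPKM in PF liver, a sum of which Ttr made the largest part. Of the 8 hepatocyte markers tested, 6 were lower and 2, Cyp2e1 and Apoa2, higher in mean in LA liver, and Fga and Fgg were called lower. Their part in the Fabp1 value was not tested.

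The other liver members tested had intervals that included 0 apart from Fabp4. Slc27a2, at 321 ± 33.6 FPKM in LA liver and 324 ± 23.8 FPKM in PF liver (SD, n = 4), had a log2 fold change of -0.02 with a 95% interval of -0.22 to 0.19. Slc27a1 was at -0.14 (-0.35 to 0.06), Cd36 at 0.14 (-0.22 to 0.49) and Slc27a4 at 0.12 (-0.14 to 0.38). Fabp2 had the widest interval, -0.88 to 0.51 around -0.19, and limma's adjusted p lay between 0.421 and 0.948 for these 5 genes. A p above the limit does not show equal levels, and the intervals give the range of differences the libraries allow.

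**Figure D4:**
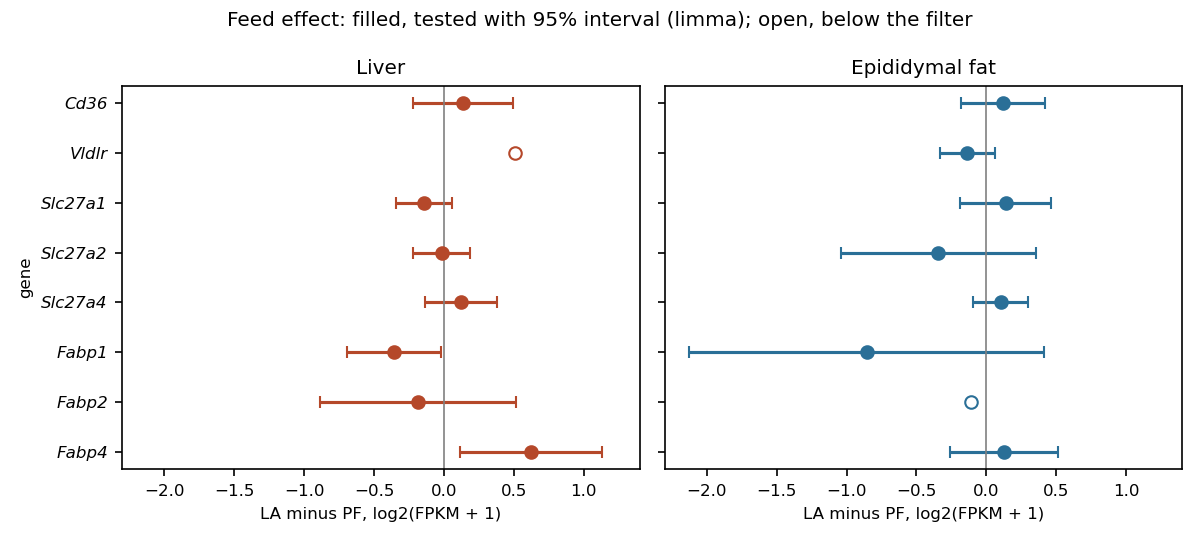
Difference of LA minus PF in log2(FPKM + 1) for each member in liver and in epididymal fat; filled points carry limma's 95% interval and open points are members below the filter of 1 FPKM in 4 libraries. In liver the intervals of Fabp1 (-0.69 to -0.02) and Fabp4 (0.11 to 1.13) leave out 0 before adjustment over all genes, and in fat every interval includes 0. Fabp4 passed the liver filter mainly through LA liver, where it was higher.

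The members with the lowest levels in liver had the largest positive differences. Fabp4 averaged 1.31 ± 0.39 FPKM in LA liver and 0.557 ± 0.554 FPKM in PF liver (SD, n = 4), with overlapping groups, a log2 fold change of 0.62 (SE 0.23) and a limma adjusted p of 0.160. It reached 1 FPKM in LA liver replicates 1, 2 and 4 and PF liver replicate 4. Fabp4 thus passed the filter mainly through the group where it was higher, and its values are given as descriptions. In 4 of the 8 fits that left out 1 library it stayed above the filter, with limma adjusted p of 0.164 to 0.301. Vldlr averaged 0.498 ± 0.148 FPKM in LA liver and 0.0480 ± 0.0450 FPKM in PF liver (SD, n = 4), a ratio of means of 10.4, and every LA library was above every PF library. Of the 9710 genes above the filter, 12.3% had feed groups that did not overlap, and that share was not computed for genes below it. Vldlr did not reach 1 FPKM in any liver library and so was not in the filtered fit. Its log2(FPKM + 1) difference was 0.51, and the exact two-sided permutation test gave p = 0.029 before any adjustment, the smallest possible. In the fit with no filter on low values, over 15621 genes, limma's adjusted p was 0.013 for Vldlr, where 2.16% of genes were called and 1.18% were called higher.

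Few fragments stand behind these low levels. Scaled by library depth, the values were whole multiples of the smallest value seen for the gene, to within 1.32e-05 of a step. With that smallest value taken as 1 fragment, Vldlr rested on 10, 22, 27 and 23 fragments in LA liver and on 1, 0, 2 and 4 in PF liver. The sums were 82 (exact Poisson 95% interval 65.2 to 102) in LA liver and 7 (2.81 to 14.4) in PF liver, intervals that cover counting error only. Fabp4 rested on 5, 8, 5 and 9 fragments in LA liver and on 1, 3, 0 and 6 in PF liver, with sums of 27 (17.8 to 39.3) and 10 (4.80 to 18.4). The Vldlr intervals did not overlap and the Fabp4 intervals did, which is not a test of the difference for either gene. The sums are not corrected for depth. Relative to the shallowest library, 1 fragment was worth 0.722 to 0.894 in LA liver and 0.853 to 1 in PF liver.

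**Figure D5:**
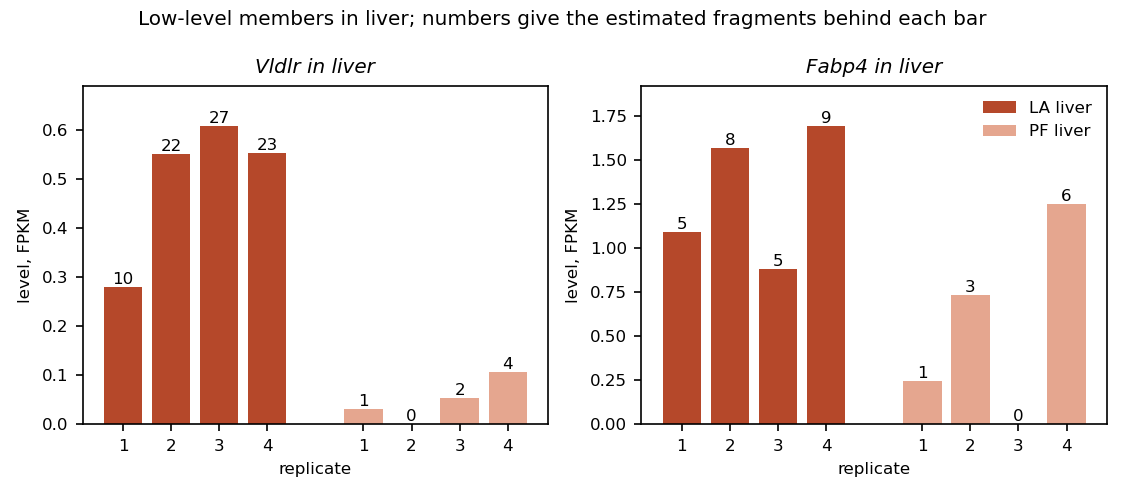
FPKM of Vldlr and Fabp4 in each LA liver and PF liver library, with the estimated number of fragments above each bar. All 4 LA liver bars of Vldlr (0.279 to 0.609 FPKM) stand above all 4 PF liver bars (0 to 0.107 FPKM), and the Fabp4 bars overlap between feeds.

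Markers of other cells were read beside these liver values. Of the 8 adipocyte markers, Adipoq, Plin, Lep and Retn were listed at 0 in every liver library of either feed, and of the other 4, tested in the filtered fit, 0 were called. Most of the adipocyte marker sum, 484 to 978 FPKM in LA liver and 374 to 830 FPKM in PF liver, was Pck1, which hepatocytes also express. Lipe did not overlap between feeds, at 1.002 to 1.36 FPKM in LA liver and 0.722 to 0.930 FPKM in PF liver (limma adjusted p = 0.190), Cidec averaged 57.9 and 51.0 FPKM, and Cfd averaged 6.30 and 9.77 FPKM, in LA liver and PF liver. The 8 endothelial markers summed to 50.4 to 54.2 FPKM in LA liver and to 51.4 to 57.1 FPKM in PF liver, and 1 of the 7 tested was called, Stab2, which was lower in LA liver (log2 fold change -0.50, limma adjusted p = 0.017). The 12 macrophage markers, of which Emr1 and Marco were listed at 0 throughout, summed to 230 to 335 FPKM in LA liver and to 165 to 193 FPKM in PF liver, without overlap, and the 9 that were tested were all higher in mean in LA liver. Cd163 and Clec4f were the 2 called. The part of these cells in the Fabp4 and Vldlr values was not tested.

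In epididymal fat, 0 of the 7 members above the filter were called by limma, against 0.0174% of 11501 genes tested (0.00869% in each direction), and 0 of the 7 had an unadjusted p under 0.05, against 3.92% of all genes tested. The median log2 fold change of the 7 was 0.10, beside 0.01 over all genes tested. The feed groups of every member overlapped, against 2.08% of genes whose groups did not. Fabp4 averaged 27686 ± 3554 FPKM in LA fat and 25264 ± 1844 FPKM in PF fat (SD, n = 4), a log2 fold change of 0.13 with a 95% interval of -0.26 to 0.51. Cd36, at 130 ± 17.6 FPKM in LA fat and 120.2 ± 18.3 FPKM in PF fat (SD, n = 4), had 0.12 (-0.18 to 0.42). Slc27a1 had 0.14 (-0.19 to 0.46), Slc27a4 had 0.10 (-0.10 to 0.30) and Vldlr, the member with the smallest p, had -0.14 (-0.33 to 0.06). The liver forms had the widest intervals in fat, -2.13 to 0.41 around -0.86 for Fabp1 and -1.04 to 0.36 around -0.34 for Slc27a2, and the 10 hepatocyte markers tested in fat were all lower in mean in LA fat, with a median of -0.74. The macrophage markers summed to 1739 to 3346 FPKM in LA fat and to 1353 to 2092 FPKM in PF fat, and their part in the fat values was not tested. The 5 mesothelial markers, all higher in mean in LA fat with a median of 0.51, summed to 123 to 388 FPKM in LA fat and to 44.3 to 337 FPKM in PF fat. Epididymal epithelium markers were at 0 in LA fat and reached 9.79 FPKM in 1 PF fat library. The Fabp1 value was -0.26 without LA fat replicate 4 and -1.32 without LA fat replicate 3, and the Slc27a2 value was -0.089 and -0.61.

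The feed effect was then compared between tissues in a model of all 16 libraries. A single member of the 8 tested was called, Vldlr, against 0.381% of 12079 genes tested and 0.232% called in its direction. Vldlr entered this fit only through fat, since no liver library reached 1 FPKM, so the liver side of the difference rests on the few fragments given above and was below the filter of the liver fit. Its LA minus PF difference was 0.51 in liver and -0.14 in fat, so the difference of liver minus fat was 0.65 (SE 0.12, 95% interval 0.38 to 0.91, limma adjusted p = 0.036). The call did not hold with no filter on low values (adjusted p = 0.056) or in 13 of the 16 fits that left out 1 library, where adjusted p ran from 0.0099 to 0.091 and the value from 0.60 to 0.72. With a pseudocount of 0.1, which gives low values more weight, the difference was 2.17 (adjusted p = 0.0046). The call held without LA liver replicate 1, without PF liver replicate 4 and without PF fat replicate 4. For the other 7 members the limma adjusted p of the difference was 0.720 or more, with Fabp4 at 0.50 (-0.09 to 1.083) and Fabp1 at 0.50 (-0.84 to 1.84).

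Related genes were counted beside the 4.48% of all genes called in liver, 2.21% lower. Of the other FATP and FABP genes, 1 of 3 tested was called: Slc27a5, which shares the liver with Slc27a2, ranged from 131 to 197 FPKM in LA liver and from 220 to 278 FPKM in PF liver, without overlap (log2 fold change -0.61, SE 0.13, limma adjusted p = 0.027). Of 10 partners tested, 3 were called, namely Acsl5 (-0.89, limma adjusted p = 0.0034) and Acsl1 (-0.43, limma adjusted p = 0.014), which activate fatty acids after entry, and the sterol carrier Scp2 (-0.43, limma adjusted p = 0.039). Of 8 regulators tested, 0 were called. Acsl5 and Acsl1 stayed under an adjusted p of 0.05 in each of the 8 fits that left out 1 library. The call was lost in 5 of those fits for Slc27a5 (adjusted p up to 0.071) and in 7 for Scp2 (up to 0.106). In fat 0 of the 25 related genes tested were called by limma, and in the comparison of feed effects between tissues Acsl5 was the related gene called (-1.02, limma adjusted p = 0.0067). The hepatocyte marker sums given beside Fabp1 were lower in LA liver too, and their part in these calls was not tested.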

How the data were processed

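Liver and epididymal fat of 8 rats gave 16 libraries made with the TruSeq V2 kit, per the labels' protocols; the kit keeps no strand information, and reads from a gene and an overlapping antisense gene cannot be separated. CASAVA 1.8.2, TopHat and Cuffdiff were used, per the submitters' processing notes, with genome build and annotation not given in the sources used here, nor any settings. The deposited tables hold the authors' FPKM, per the file headers, which number replicates from 0 where the labels number them from 1. A 0 can be a failed estimate, since Alb and Tf are listed at 0 in liver and Dbi everywhere. No pair of libraries held identical values.

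After log2 transformation of FPKM with a pseudocount of 1, linear models were fitted with limma 3.58.1 (R 4.3.3) and a trended prior variance. A gene entered a fit if 4 or more of its libraries reached 1 FPKM, and p-values were adjusted over all such genes by the Benjamini-Hochberg method. Fold changes on this scale understate changes of low genes. The limit for a call was an adjusted p of 0.05, with a log2 fold change above 1 in either direction required too when tissues were compared. Each feed comparison used the 8 libraries of its tissue, each tissue comparison the 8 libraries of its feed, and the difference of feed effects all 16. The exact permutation test covered the 70 arrangements of 4 against 4 libraries. Each fit was repeated with a pseudocount of 0.1, without the filter, after median centring, with a replicate block, with all 16 libraries in 1 model, at an adjusted p under 0.1 and with each library left out; leaving out libraries in the unfiltered fit and for related genes was added after seeing the data. The fit was tested on simulated data. Fragment steps were read from values up to 0.5 FPKM, promoters from a RefSeq table of GRCr8, and figures drawn with matplotlib 3.10.9.

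The members, the related gene lists and the cell type markers were chosen with earlier results of these data known. Every member is reported whatever its p; of the 38 related genes found among 39 listed, those called in a feed comparison and the 3 largest tissue differences in each direction per list are named, apart from a gene that is not reported here. The same lists also cover T cells, mesothelium, epididymal epithelium, exocrine pancreas and muscle. In LA liver and PF liver these 5 lists summed to at most 12.0 and 8.58 FPKM for T cells, 3.33 and 3.58 FPKM for mesothelium, 0.116 and 0 FPKM for epididymal epithelium, 10.3 and 6.84 FPKM for exocrine pancreas and 0.179 and 0.263 FPKM for muscle.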

Additional observations from a re-analysis of the deposited data

Results flagged for a closer look

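Slc27a2 stood apart in a library of 2 groups. LA liver replicate 4 had 370.3 FPKM, where the next highest LA liver library had 309 FPKM. PF fat replicate 4 had 3.22 FPKM, where the next highest PF fat library had 1.64 FPKM, and the same library had the highest hepatocyte marker median in fat, 0.966% of the liver level. Fabp2 was listed at 0.112 FPKM in LA fat replicate 2 and at 0 in the other LA fat libraries. These were 3 gaps among 32 sets of 4 libraries examined, where chance gives about 1 in 20. The feed effect on Vldlr differed between liver and fat by 0.65 on the log2 scale, by the test of the difference itself (limma adjusted p = 0.036). The gene passed the filter only through fat, and the call was lost without the filter, with the replicate block and in 13 of 16 fits that left out 1 library.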

How the results depend on the processing

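With no filter on low values, 1 member, Vldlr, was called in liver in place of 0, with an adjusted p of 0.013 (0.0017 to 0.046 with each liver library left out as well), and 0 members and 22 genes were called for the difference of feed effects, in place of 1 and 46. At an adjusted p under 0.1, 848 genes were called in liver in place of 435, and 94 for the difference. In fat, 1 gene was called with a pseudocount of 0.1 and 7 with all 16 libraries in 1 model, in place of 2. Leaving out 1 library gave 208 to 404 genes in liver, 0 to 2 in fat and 19 to 60 for the difference, with 0 to 1 members called for the difference. In the tissue comparisons it left 7 of 8 members called, because Fabp2 or Vldlr then fell under the filter. The difference of feed effects for Fabp2 was 0.38 with a pseudocount of 0.1, in place of -0.08. Values near 0 changed sign when 1 library was left out: the difference ranged from -0.071 to 0.19 for Cd36, -0.10 to 0.96 for Fabp1, -0.38 to 0.19 for Fabp2 and -0.050 to 0.081 for Slc27a4, and in liver from -0.49 to 0.081 for Fabp2 and -0.087 to 0.022 for Slc27a2. The cause was not tested.

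Correlations of the deviations of same-numbered libraries were -0.0014 to 0.152 between LA and PF liver and -0.434 to -0.0686 between LA and PF fat, -0.223 to 0.114 between LA liver and fat and -0.0342 to 0.304 between PF liver and fat, where 2 of 4 numbers matched best both ways. In no set were all 4 over 0.1, so the numbers were not taken to pair the samples. With the replicate block, 1 member was called in liver (Fabp4, adjusted p = 0.037) and 0 for the difference (Vldlr, adjusted p = 0.117). Fabp4 passed the liver filter mainly through LA liver, so that call is given as a description. The block gave 476 genes in liver, 1 in fat and 37 for the difference. Without counts, precision at low levels is known only through the fragment steps.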

Other observations

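The genes whose log2(FPKM + 1) values followed Fabp4 most closely over the 8 liver libraries, among 8340 named genes, were S1pr2 (Pearson correlation 0.988), Tarbp2 (0.985) and Mafk (0.967). Over the 8 fat libraries and 9852 named genes, Vldlr was followed most closely by Gucy1b3 (0.956), Pdxk (0.954) and Mtus1 (0.944). These are the highest of many correlations over libraries that share feed groups and depth, and are given as descriptions.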
